A study of Mus musculus with 8 samples.

Results

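The genes described here are 10 regulators of epithelial identity: the Ovol zinc finger factors Ovol1 and Ovol2, the splicing regulators Esrp1 and Esrp2, the Grainyhead-like factors Grhl1, Grhl2 and Grhl3, and the epithelium-specific Ets factors Ehf, Elf3 and Elf5. They were chosen by gene symbol, as 10 of the 19938 genes with a probe set of their own on the array, and each of the 10 had 1 such probe set (10485445 for Ehf, 10474171 for Elf5, 10517401 for Grhl3 and 10465106 for Ovol1, the genes that moved most). Their levels were read in back-skin keratinocytes of CD1 mice aged 8 weeks, on 8 arrays with 1 array per group. Wild type mice gave 4 of the groups, the cells negative and the cells positive for CD34 and, in a separate sort, for Mts24. The same 4 fractions came from K14Snail mice, a transgenic line that expresses Snail under the keratin 14 promoter of basal keratinocytes. CD34 marks cells of the follicle bulge, a stem cell niche, and Mts24 marks cells higher up the follicle; both were selected with magnetic beads after trypsin treatment of skin. RNA on the CD34 arrays was pooled from 11 mice each and RNA on the Mts24 arrays from 9, with both sexes in every pool. No group had a replicate array, so the genotypes stood in as replicates of a fraction and the fractions as replicates of a genotype, and p-values measure only the spread between these arrays.

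Snail is a repressor that binds E-box DNA and can drive epithelial cells towards a mesenchymal state. The 10 genes belong to the opposing side of that balance. Ovol factors repress genes of the mesenchymal program, Esrp proteins set the epithelial isoforms of many transcripts, Grhl factors switch on genes of junctions and the skin barrier, and Ehf, Elf3 and Elf5 are Ets factors largely confined to epithelia. In epidermis Ovol1, Grhl1 and Grhl3 are best known in cells that leave the basal layer and differentiate.

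Promoter sequence from RefSeq (GRCm38.p6) was found for 5 of the 10 genes, in 7 windows. The 250 bases before the start are shown for Grhl3, which fell in both positive fractions, for Elf5, which rose in the Mts24 positive one, and for Elf3, a close relative of Elf5 that stayed dim; these are the windows that lie at the outermost annotated start of their gene. Capitals mark the letters CAGGTG (reverse CACCTG) of the E-box bound by Snail, or AACCGG (reverse CCGGTT), the core of the Grainyhead site, on either strand. The Grhl3 window is chr4:135573633-135573882, minus strand, the Elf5 window chr2:103411848-103412097, plus strand, and the Elf3 window chr1:135258473-135258722, minus strand, each written 5′ to 3′ towards the start.
Grhl3: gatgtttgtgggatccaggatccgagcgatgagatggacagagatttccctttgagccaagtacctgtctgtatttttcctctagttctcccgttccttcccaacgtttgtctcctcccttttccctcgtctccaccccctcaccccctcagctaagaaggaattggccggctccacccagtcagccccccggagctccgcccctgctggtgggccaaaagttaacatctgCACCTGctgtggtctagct
Elf5: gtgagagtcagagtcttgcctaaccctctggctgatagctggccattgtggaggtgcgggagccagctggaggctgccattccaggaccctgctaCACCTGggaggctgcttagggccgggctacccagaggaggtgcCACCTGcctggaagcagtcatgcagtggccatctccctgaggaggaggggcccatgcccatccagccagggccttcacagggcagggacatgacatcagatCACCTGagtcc
Elf3: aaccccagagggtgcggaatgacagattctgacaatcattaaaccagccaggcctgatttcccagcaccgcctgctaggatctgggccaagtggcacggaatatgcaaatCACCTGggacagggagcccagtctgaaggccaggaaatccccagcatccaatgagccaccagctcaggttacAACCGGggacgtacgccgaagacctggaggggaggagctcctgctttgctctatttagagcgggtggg
The Elf5 window holds 3 E-box matches, beginning 155, 112 and 11 bases before the start. The 4 windows not shown (Ovol2, both of Grhl1 and the second of Elf5) hold 0. Grhl3 holds 1, at 19 bases, and Elf3 holds 1, at 140 bases, with the only Grainyhead match of the 7 windows at 68 bases. Of all 32851 RefSeq windows of this length, 17.2% hold the E-box letters and 5.62% the Grainyhead letters. The Ets core GGAA (reverse TTCC) is in 93.4% of them and in each of the 7 windows. A match describes letters and shows no binding.

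Snai1 checked the genotype: its log2 level (the unit of all levels and differences given here) was 7.86 to 8.16 in the 4 wild type arrays and 10.84 to 11.04 in the 4 K14Snail arrays, a difference of 2.94 ± 0.06 (SE; limma adjusted p = 0.000130). Cd34 was higher in CD34 positive cells by 7.24 and Plet1, whose product carries Mts24, was higher in Mts24 positive cells by 3.22. Cd34 also rose with Mts24, by 1.57 ± 0.24 (limma adjusted p = 0.00927). It was 12.12 and 11.56 in Mts24 positive and 10.03 and 10.51 in Mts24 negative cells of wild type and K14Snail, against 6.12 and 6.27 in CD34 negative cells. Both Mts24 fractions thus carried Cd34, the positive one more. Plet1 with CD34 (0.59 ± 0.20) did not pass (limma adjusted p = 0.0783). The keratinocyte markers were high everywhere, with Krt5 between 13.68 and 13.87 and Trp63, the p63 gene, between 12.12 and 12.46; E-cadherin (Cdh1) lay between 12.42 and 12.66. Immune markers were detected too. T cell markers fell in both sorts (4 of 4 tested), and their summed log2 level was 10.18 to 10.77 in the positive and 12.49 to 13.30 in the negative fractions. Summed myeloid markers were lowest in the wild type positive fractions (11.65 and 11.71) and lay between 13.13 and 13.87 elsewhere, with 13.13 in CD34 negative and 13.17 in CD34 positive K14Snail cells. No measure of background came with the arrays, so differences that involve levels under 7.70 (the median over all named genes and arrays) are uncertain in size. A gene was tested when 2 or more of the 8 arrays reached that level, which left 10720 genes.

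**Figure D1:**
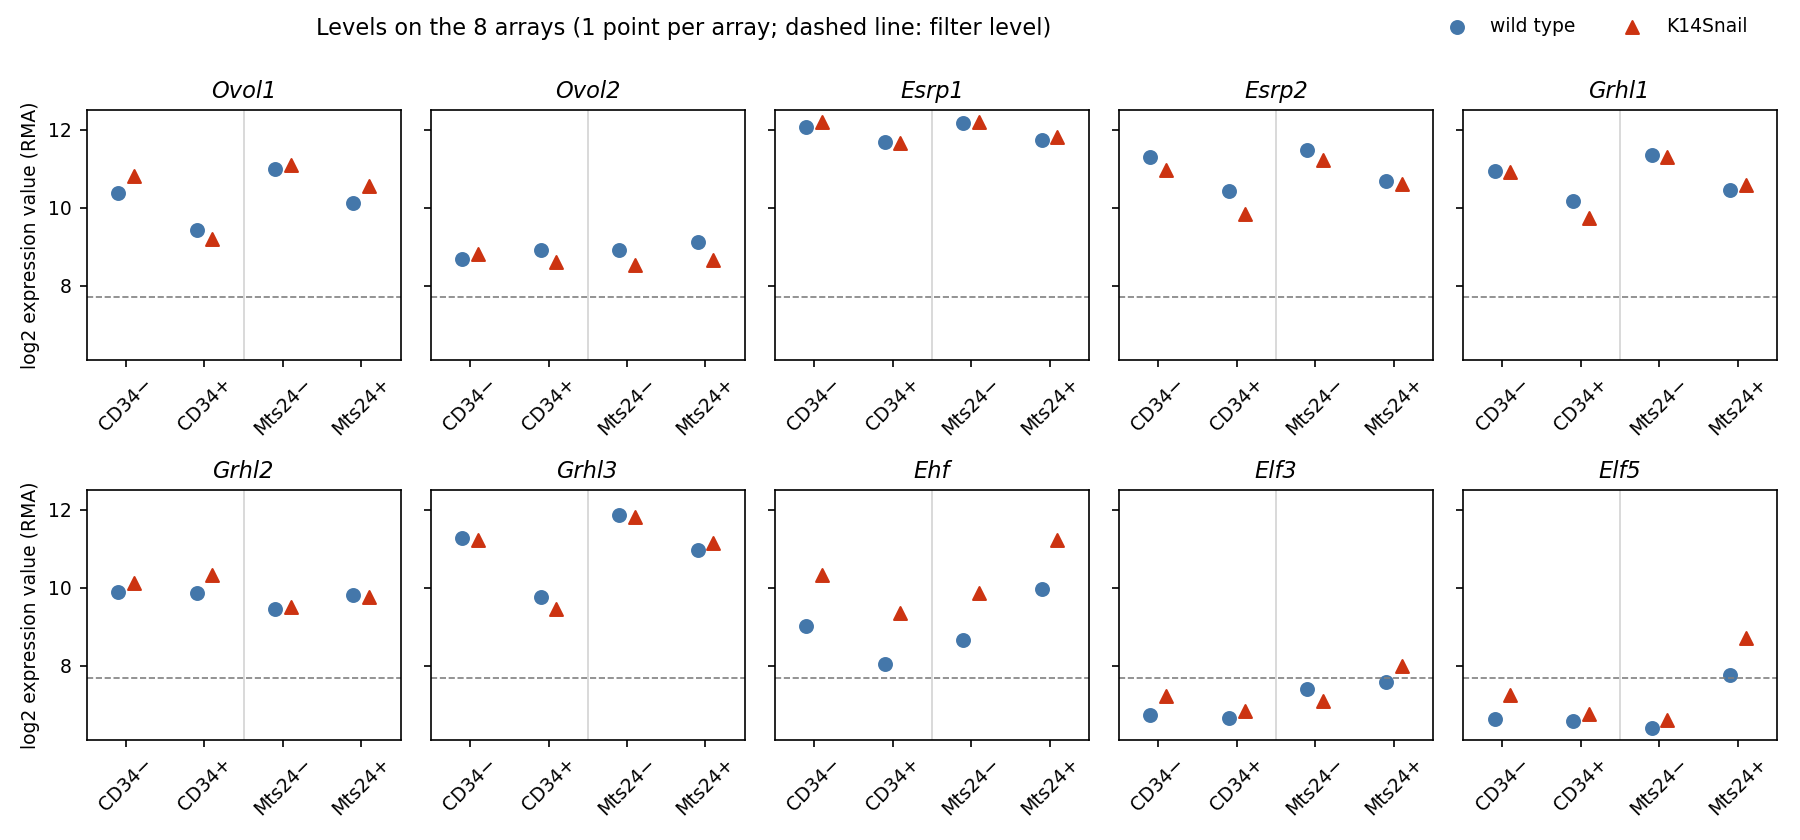
Log2 expression values (RMA) of the 10 genes in the 4 sorted fractions, 1 point per array, circles for wild type and triangles for K14Snail; the dashed line is the filter level of 7.70. Ehf is higher in K14Snail in each of the 4 fractions, Grhl3 and Ovol1 are lowest in CD34 positive cells, and Elf3 passes the line on 1 array.

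Of the 10 genes 9 passed this filter. Elf3, an Ets factor of simple and inflamed epithelia, did not. In wild type it stood at 6.74 and 6.67 in the negative and positive cells of the CD34 sort and at 7.40 and 7.59 in those of the Mts24 sort; in K14Snail it stood at 7.22, 6.84, 7.10 and 8.00 in the same order. Only the K14Snail Mts24 positive array reached the filter level, so Elf3 was not tested in the main fit. With no filter on level its genotype difference was 0.19 ± 0.13 (limma adjusted p = 0.505). Elf5 passed by 2 arrays, both of them Mts24 positive.

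The genotypes were set against each other over the 4 fractions, to ask whether the Snail transgene changes these epithelial regulators. Among the 9 tested genes 1 rose, Ehf, 0 fell and 8 did not pass an adjusted p of 0.05; of all genes tested 0.382% passed in either direction, 0.177% higher and 0.205% lower. Ehf encodes an Ets factor active in stratified and glandular epithelia. In wild type its level was 9.03 in the negative and 8.04 in the positive cells of the CD34 sort, and 8.67 and 9.98 in those of the Mts24 sort. In K14Snail it was 10.32, 9.36, 9.86 and 11.23 in the same order. The K14Snail array was the higher one in each of the 4 pairs, although the ranges of the genotypes overlap because the fractions differ. The rise was 1.26 ± 0.06 (SE, 2.40-fold, limma adjusted p = 0.00301). It was nearly equal in the pairs, at 1.29 and 1.32 in the negative and positive cells of the CD34 sort and 1.19 and 1.25 in those of the Mts24 sort. In each single pair Ehf therefore passed a 2-fold difference, as 0.858%, 4.94%, 0.737% and 1.91% of tested genes did in those fractions. Among the 41 genes called for genotype Ehf had rank 7 by size and rank 3 by p. The call rests on few arrays: with any 1 of the 4 Mts24 arrays left out the rise was 1.27 or 1.29 with an adjusted p between 0.0511 and 0.0564. With either CD34 pool left out it was 1.22 (limma adjusted p = 0.0693), and with either Mts24 pool left out 1.31 (limma adjusted p = 0.342). Both pools of a sort give the same genotype fit when left out, because the remaining pool of that sort then adds nothing to the genotype estimate. Summed sebaceous gland markers spanned 12.90 to 13.85 in wild type and 12.43 to 13.41 in K14Snail. They were lower in K14Snail in the CD34 negative (13.74 against 13.07), CD34 positive (13.85 against 12.43) and Mts24 negative pairs (13.52 against 13.41). In the Mts24 positive pair they were higher (12.90 against 13.15). Their median genotype difference was -1.44, against 0.025 over all genes tested (0 of 6 tested passed by limma, 4 with an unadjusted p under 0.05). Melanocyte markers spanned 8.90 to 10.42 in wild type and 8.97 to 11.41 in K14Snail (0 of 3 passed, 3 with an unadjusted p under 0.05). Summed myeloid markers were higher in K14Snail in both positive pairs (11.65 against 13.17 with CD34, 11.71 against 13.38 with Mts24) and lower in both negative pairs (13.75 against 13.13, 13.87 against 13.76). For genotype 0 of 10 passed by limma, 1 with an unadjusted p under 0.05. For the interaction of genotype with fraction 0 of 10 passed by limma, but 10 had an unadjusted p under 0.05, as did 1059 of all 10720 genes tested. Their median interaction was 1.66, against 0.04 over all genes tested. The part of these markers in the Ehf difference was not tested.

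The other Ets member, Elf5, a factor best known from mammary and placental epithelium, was higher in K14Snail in 4 of 4 pairs, by 0.62 and 0.17 in the negative and positive cells of the CD34 sort and by 0.23 and 0.95 in those of the Mts24 sort. The averaged difference of 0.49 ± 0.14 did not pass (limma adjusted p = 0.174), and 6 of its 8 arrays lay under the filter level. Esrp2 was lower in 4 of 4 pairs (-0.31 ± 0.09, adjusted p = 0.175), most in CD34 positive cells (-0.59) and least in Mts24 positive cells (-0.07). Its partner Esrp1 stood at 0.05 ± 0.06 (adjusted p = 0.597). Sign agreement in 4 of 4 pairs was seen for 31.6% of all tested genes. Among the Ovol genes, Ovol2 was at -0.25 ± 0.11 (adjusted p = 0.264) and Ovol1 at 0.19 ± 0.13 (adjusted p = 0.415). The Grhl genes stayed within 0.18 of 0: Grhl1 at -0.10 ± 0.10, Grhl2 at 0.18 ± 0.09 and Grhl3 at -0.06 ± 0.09. The 95% confidence interval of the genotype difference ran from -0.29 to 0.17 for Grhl3 and from -0.09 to 0.20 for Esrp1. For both, a 2-fold change over the 4 fractions lies outside the interval, which rests on the same few arrays.

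The genotype difference was also set against the fraction, by asking whether positive and negative cells differ by another amount in K14Snail. None of the 9 genes passed (limma, 0 calls, 0 of the 9 with an unadjusted p under 0.05, 0% of all genes tested called, 1059 genes with an unadjusted p under 0.05, and 3 of all genes called with a trended prior). Ehf had an interaction of 0.05 ± 0.12 (adjusted p = 0.930), and the smallest adjusted p of the 9 was 0.737.

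**Figure D2:**
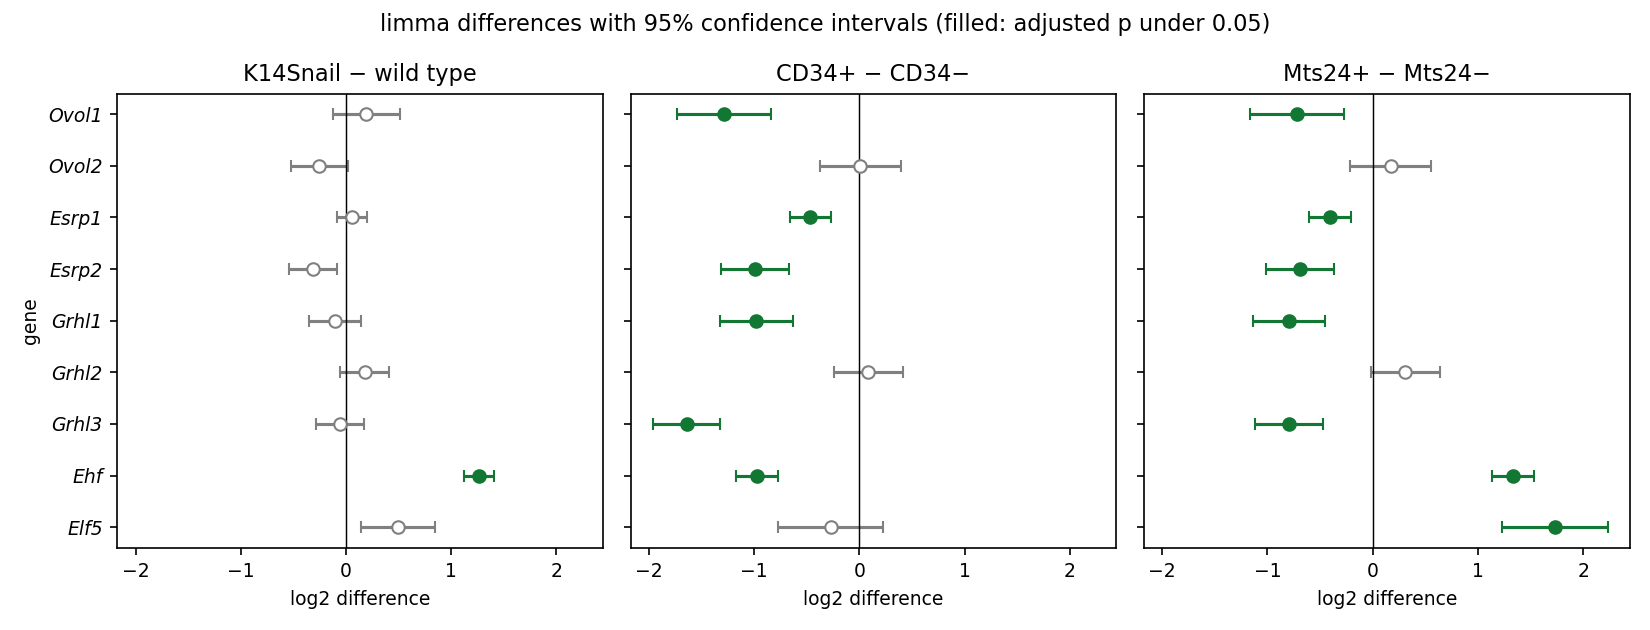
Log2 differences of the 9 tested genes for genotype, the CD34 sort and the Mts24 sort, as limma estimates with 95% confidence intervals; filled green points have an adjusted p under 0.05. Ehf alone is filled in the genotype panel, and the 6 filled genes of the CD34 panel all lie left of 0. Among the filled genes of the Mts24 panel, Ehf and Elf5 lie right of 0 and 5 lie left of it.

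The CD34 sort describes these regulators in the bulge fraction, with the cells left behind as the comparison. All 6 genes that passed were lower there, 0 were higher and 3 did not pass; of all genes tested 26.8% were called, 13.4% lower. The median difference of the 9 genes was -0.97, against -0.03 over all genes tested. Grhl3, which drives barrier genes and wound closure, fell most. Its log2 level was 11.28 in CD34 negative and 9.78 in CD34 positive wild type cells, and 11.23 and 9.45 in K14Snail cells. Both CD34 positive arrays lay under every other array of the series. The fall was by 1.64 ± 0.13 (3.12-fold, limma adjusted p = 0.000830). In bulk samples of this kind, fewer cells of a type and less RNA per cell cannot be told apart.

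Ovol1, a repressor that acts as keratinocytes stop dividing and differentiate, followed. It was at 10.37 in CD34 negative and 9.43 in CD34 positive wild type cells, and at 10.82 and 9.19 in K14Snail. Again the CD34 positive arrays were the lowest of the 8, and the fall was by 1.29 ± 0.18 (2.44-fold, limma adjusted p = 0.00497). Esrp2 went from 11.30 to 10.43 in wild type and from 10.97 to 9.85 in K14Snail (-0.99 ± 0.13, adjusted p = 0.00408). Grhl1, which with desmosomal cadherins supports hair anchoring and the barrier, went from 10.96 to 10.17 in wild type and from 10.92 to 9.74 in K14Snail (-0.98 ± 0.14, adjusted p = 0.00522). Ehf fell by 0.97 ± 0.08 (adjusted p = 0.000920), from 9.03 to 8.04 in wild type and from 10.32 to 9.36 in K14Snail. Esrp1 fell least, by 0.46 ± 0.08 (1.38-fold, adjusted p = 0.00994), and stayed at 11.67 or above on every array. Its call was lost without the wild type CD34 negative array (-0.50, adjusted p = 0.0556), the K14Snail CD34 negative array (-0.43, adjusted p = 0.0831) or the K14Snail CD34 positive array (-0.42, adjusted p = 0.0526). The fall of the other 5 genes passed without any 1 of the 8 arrays.

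Grhl2, a broadly expressed relative that activates E-cadherin and claudin genes in many epithelia, differed by 0.08 ± 0.13 (adjusted p = 0.697; 95% confidence interval -0.24 to 0.41). Ovol2, which is known as the Ovol gene of epithelial progenitors, differed by 0.01 ± 0.16 (adjusted p = 0.978; interval -0.37 to 0.39). For both, the interval leaves out falls of the size seen for Grhl3 and Ovol1. Within each of these families 1 member or more was thus lower in CD34 positive cells while another did not pass. Elf5 was under the filter level on all 4 CD34 arrays (6.59 to 7.26), and its difference of -0.27 did not pass (adjusted p = 0.388). T cell markers, given above, also fell in CD34 positive cells, and so did 2 of 10 myeloid markers, the leukocyte antigen Ptprc (-1.90 ± 0.39) and Fcer1g (-1.61 ± 0.31). These are 20% of the myeloid markers, where 26.8% of all genes tested were called, 13.4% lower. The part of these markers in the falls was not tested.

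Mts24 positive cells were compared with Mts24 negative cells to describe the upper follicle fraction. Of the 9 genes 2 rose, 5 fell and 2 did not pass, where 26.3% of all genes tested were called, 12.8% higher and 13.5% lower. Both genes that rose were Ets factors. Elf5 entered the test only through its Mts24 positive arrays, so its place in this count is no support for the rise. Elf5 went from 6.40 in Mts24 negative to 7.77 in Mts24 positive wild type cells and from 6.62 to 8.72 in K14Snail cells. The Mts24 positive arrays were the highest of the 8, and the rise was 1.73 ± 0.20 (3.33-fold, limma adjusted p = 0.00433; 0.00327 with no filter on level, where all genes were tested). Since the negative arrays lay under the filter level, its size is uncertain. Ehf went from 8.67 to 9.98 in wild type and from 9.86 to 11.23 in K14Snail, a rise of 1.33 ± 0.08 (2.52-fold, adjusted p = 0.00108). Ehf and Elf5 are neighbours on chromosome 2, with 0 protein-coding genes between them in RefSeq.

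The 5 genes that fell were among the 6 that fell with CD34. Grhl1 went from 11.34 to 10.47 in wild type and from 11.29 to 10.58 in K14Snail (-0.80 ± 0.14, adjusted p = 0.0130). Grhl3 went from 11.86 to 10.96 and from 11.82 to 11.14 (-0.79 ± 0.13, adjusted p = 0.0107). Ovol1 went from 10.98 to 10.11 and from 11.11 to 10.55 (-0.72 ± 0.18, adjusted p = 0.0370). Each of these genes was lower in the positive array of both pairs. Esrp2 (-0.69 ± 0.13, adjusted p = 0.0165) and Esrp1 (-0.41 ± 0.08, adjusted p = 0.0181) were lower as well. Grhl2 was at 0.31 ± 0.13 (adjusted p = 0.140) and Ovol2 at 0.17 ± 0.16 (adjusted p = 0.454), neither past the threshold. Elf3, not tested in the main fit, was higher in Mts24 positive cells by 0.18 in wild type and 0.90 in K14Snail. With no filter on level the difference was 0.54 ± 0.19 and did not pass (limma adjusted p = 0.120).

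These calls lean on 4 arrays. Without the wild type Mts24 negative, the wild type Mts24 positive or the K14Snail Mts24 negative array, Ehf and Elf5 kept their calls and the 5 falls lost theirs. Far fewer of all genes tested were called as well without any 1 of the Mts24 arrays, so a loss of calls is not particular to these genes. The falls kept their sign each time. Over the removals of single arrays Grhl3 lay between -0.95 and -0.63 (adjusted p up to 0.0793), Grhl1 between -0.94 and -0.65 (up to 0.0938), Esrp2 between -0.85 and -0.53 (up to 0.111) and Esrp1 between -0.43 and -0.39 (up to 0.114). Without the K14Snail Mts24 positive array Esrp1 (adjusted p = 0.0757) and Ovol1 (adjusted p = 0.0854) did not pass. Ovol1 was the weakest, between -0.87 and -0.56 (up to 0.182), and it also missed the threshold without either CD34 negative array (adjusted p = 0.0508) and with the pool as a fixed block (adjusted p = 0.0677). In this sort the 4 tested T cell markers fell, as did 4 of 10 myeloid markers (40%) and the 3 tested melanocyte markers (Dct by 3.12 ± 0.32). Of all genes tested 26.3% were called, 13.5% lower. The part of these markers in the falls was not tested.

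The difference between the sorts was then tested directly, as the CD34 difference minus the Mts24 difference. Of the 9 genes 2 passed, both lower with CD34, where 4.74% of all genes tested were called and 2.05% lower. Ehf moved in opposite directions, with -0.99 and -0.96 in the CD34 pairs and 1.30 and 1.36 in the Mts24 pairs of wild type and K14Snail, and the difference was -2.31 ± 0.11 (limma adjusted p = 0.00302). It passed without any 1 array. For Elf5, which passed the filter only through the Mts24 positive arrays, it was -2.00 ± 0.29 (adjusted p = 0.0223; 0.0186 with no filter). That call was lost with the pool as a fixed block (adjusted p = 0.0651), and without either CD34 negative array (adjusted p = 0.0936 and 0.0932), either Mts24 negative array (0.0631 and 0.101) or the K14Snail Mts24 positive array (0.0608). Grhl3 at -0.85 ± 0.18 did not pass (adjusted p = 0.0666), except without the wild type CD34 positive array (-1.03, adjusted p = 0.0368). The values of Ovol1 (-0.57 ± 0.26, adjusted p = 0.296), Esrp2 (-0.30, adjusted p = 0.447), Grhl2 (-0.23, adjusted p = 0.581), Grhl1 (-0.18, adjusted p = 0.682), Ovol2 (-0.17, adjusted p = 0.750) and Esrp1 (-0.06, adjusted p = 0.848) did not pass either.

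**Figure D3:**
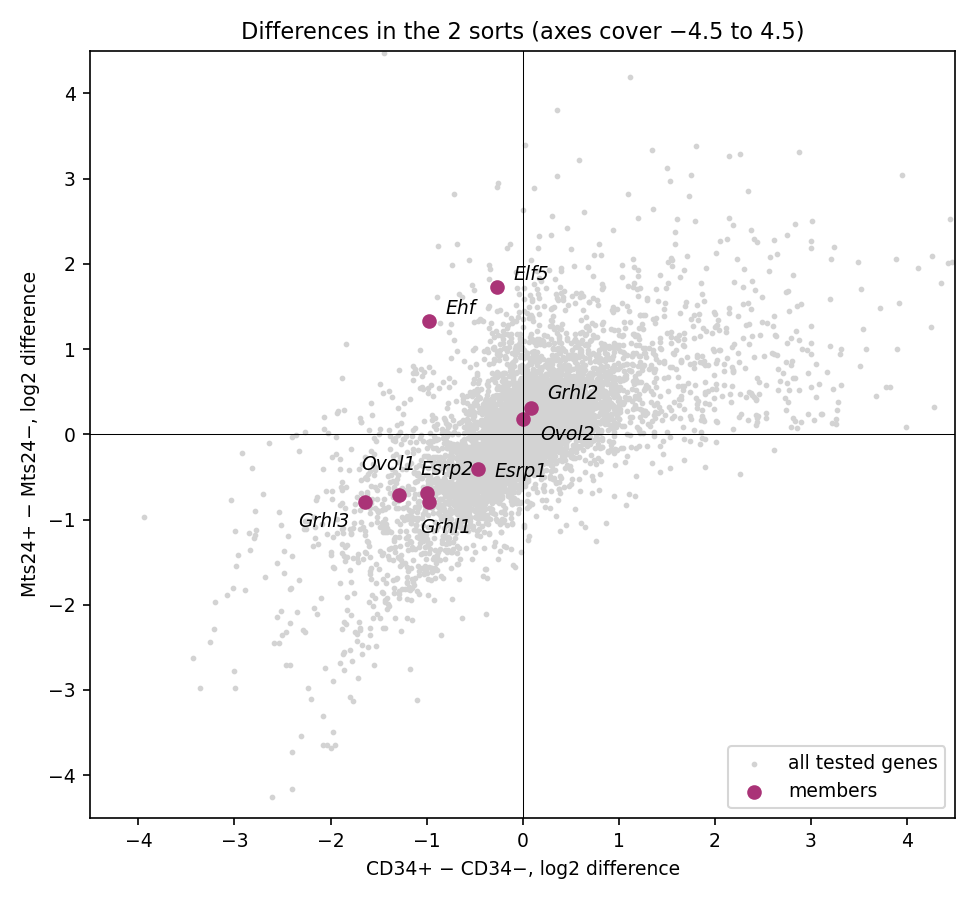
CD34 positive minus negative log2 difference (x axis) against the Mts24 positive minus negative difference (y axis), grey for all tested genes and purple for the 9 members; 12 of the 10720 genes lie outside the axes. Ehf and Elf5 sit above 0 for Mts24 and below 0 for CD34, Grhl3, Ovol1, Grhl1, Esrp2 and Esrp1 sit below 0 on both axes, and Grhl2 and Ovol2 lie close to the origin.

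The order of the 4 fraction means was the same for 5 genes. Mts24 negative cells were highest and CD34 negative cells next, then Mts24 positive and last CD34 positive cells, for Ovol1, Grhl1, Grhl3, Esrp1 and Esrp2. Not all of these steps were beyond the spread. Between Mts24 negative and CD34 negative cells 0 of the 9 genes passed by limma, 4 with an unadjusted p under 0.05 (of all genes tested 0.0466% were called, and 2070 had an unadjusted p under 0.05). Between the positive fractions of the sorts 4 of the 9 genes passed, all lower in CD34 positive cells, where 13.1% of all genes tested were called and 4.69% lower. Besides Ehf and Elf5 (-1.90 and -1.57) they were Grhl3 (11.05 to 9.61, difference 1.44 ± 0.13, adjusted p = 0.00392) and Ovol1 (10.33 to 9.31, difference 1.02 ± 0.18, adjusted p = 0.0220). Elf5 entered the test only through its Mts24 positive arrays, so its place in this count is no support (limma adjusted p = 0.00743 with no filter). With no filter Elf3 was lower too, by 1.04 ± 0.19 (limma adjusted p = 0.0259). For both Ets genes the CD34 positive levels lay under the filter level, so these sizes are uncertain. For Grhl3 and Ovol1 the difference was the last step of the order. That last step did not pass for Grhl1 (adjusted p = 0.0537), Esrp2 (adjusted p = 0.0568) or Esrp1 (adjusted p = 0.437). The middle step, from CD34 negative to Mts24 positive, passed for Esrp1 alone of these 5 (12.14 to 11.78, adjusted p = 0.0423). Of all genes tested 13% were called between these fractions, 5.5% higher and 7.48% lower in Mts24 positive cells.

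Ehf had another order: Mts24 positive (10.60), CD34 negative (9.68), Mts24 negative (9.27) and CD34 positive (8.70). Its top step of 0.93 ± 0.08 (adjusted p = 0.00434) and its last step of 0.57 ± 0.08 (adjusted p = 0.00345) passed, and the middle one did not (adjusted p = 0.143). Elf5 stood apart in Mts24 positive cells (8.24), and its other fraction means lay between 6.51 and 6.95. Its top step, down to CD34 negative cells, was 1.30 ± 0.20 (adjusted p = 0.0176; 0.0164 with no filter, the fit in which its Mts24 positive level did not decide that it was tested). No step among the other fractions passed. For Ovol2, with means from 8.72 to 8.90, and Grhl2, from 9.48 to 10.09, no neighbouring fractions differed past the threshold. The ends of the Grhl2 order did differ: CD34 positive cells were above Mts24 negative cells by 0.61 ± 0.13 (adjusted p = 0.0151), with 6 of the other genes lower, where 40.8% of all genes tested were called, 21.9% higher and 18.9% lower. In comparisons across the sorts, the sort and the pool of mice cannot be told apart.

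Across the 8 arrays the members fell into sets, described here by Pearson's r on 8 points that share fractions and pools. Ovol1, Grhl1, Grhl3, Esrp1 and Esrp2 followed one another with r from 0.84 (Esrp1 with Grhl3) to 0.97 (Ovol1 with Grhl3). Grhl2 ran against that set, at -0.74 with Grhl1 and with Grhl3, -0.73 with Esrp2, -0.66 with Ovol1 and -0.46 with Esrp1. Ehf and Elf5 followed each other (0.84), while Ehf was at 0.38 with Ovol1 and 0.30 with Grhl3. Elf5 passed the filter only through its 2 Mts24 positive arrays and lay under the filter level on all others. Its r therefore leans on those 2 arrays and is no support for a set. Ovol2 had no |r| over 0.25 with any other member, on a range of 0.59 over the arrays.

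**Figure D4:**
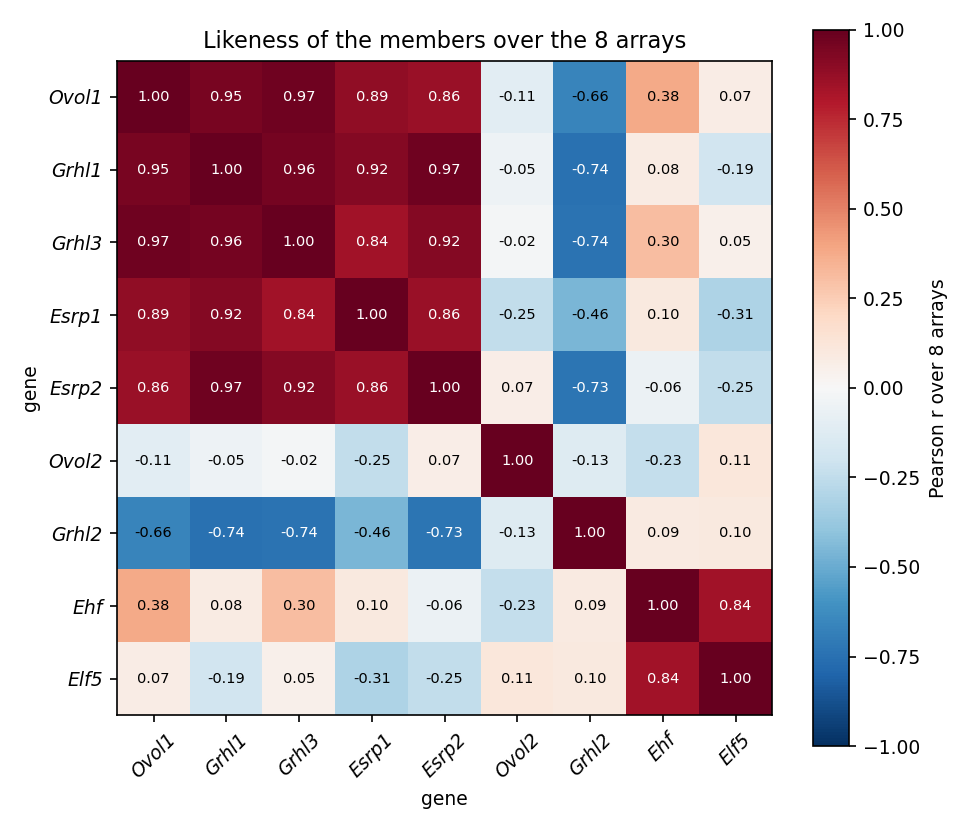
Pearson's r over the 8 arrays between the 9 tested genes, from blue (-1) through white (0) to red (1), with the value in each cell. The block of Ovol1, Grhl1, Grhl3, Esrp1 and Esrp2 is red throughout, and Grhl2 is blue against that block. Ehf and Elf5 pair with each other, where only the Mts24 positive arrays of Elf5 reached the filter level.

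The genes whose pattern was most like each member's, among tested genes with a range of at least 1 over the 8 arrays, again describe these arrays. Grhl3 was followed by Clu (r = 0.99), Myd88 (0.99) and Zfp750 (0.99), the last a zinc finger factor of terminal epidermal differentiation. Grhl1 was followed by Prrg4 (0.998), Card14 (0.99), a scaffold of keratinocyte inflammatory signalling, and Ceacam19 (0.99). Ovol1 was followed by Adgrf4 (0.99), Sdr16c5 (0.98) and the epithelial kinase Ptk6 (0.98). Esrp2 was followed by Pdlim2, Slc31a2 and Ly6g6e (0.99 each), and Esrp1 by Jarid2, Ddr2 and Mbp (0.99 each). Ehf was followed by the growth factor Vegfa (0.96), Fcamr (0.94) and the kinase Map3k14 (0.93). Elf5, under the filter level on all but its Mts24 positive arrays, was followed by Ppif (0.98), the kallikrein Klk12 (0.96) and the chemokine Ccl7 (0.96). The best matches were looser for Grhl2, with Ptk7 (0.95), Mtr (0.93) and Dst (0.92), and for Ovol2, with Prp2 (0.82), Dpysl5 (0.78) and Angptl4 (0.73).

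Other transcription factors of the epidermis also moved both ways. Of 18 tested, 2 rose and 7 fell in CD34 positive cells (median -0.31), and 2 rose and 6 fell in Mts24 positive cells (median -0.37). That was 50% and 44.4% called, against 26.8% and 26.3% of all genes tested (medians -0.03 and 0.02). For genotype 0 passed by limma, 2 with an unadjusted p under 0.05. The POU factors of differentiating keratinocytes fell most with CD34, Pou2f3 (-1.98 ± 0.24) and Pou3f1 (-1.53 ± 0.17), followed by Tfap2c (-1.33 ± 0.19) and Klf5 (-1.32 ± 0.09). With Mts24 the homeobox factor Barx2 rose by 1.24 ± 0.08 (limma adjusted p = 0.00132), and it rose by 1.25 with CD34, while Gata3 (-0.87), Pou3f1 (-0.86) and Cebpa (-0.74) fell with Mts24. Trp63 passed in neither sort (-0.08 and 0.04).

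Of 30 tested junction and epithelial genes that such factors are known to regulate or work with, 4 rose and 11 fell with CD34 (median -0.20) and 4 rose and 9 fell with Mts24 (median -0.10). That was 50% and 43.3% called, against 26.8% and 26.3% of all genes tested. The tight junction gene Cldn8 rose in both, by 2.15 ± 0.20 and 3.27 ± 0.20. The desmosomal cadherin Dsg1b fell in both, by 1.12 ± 0.13 and 1.34 ± 0.13, as did the tight junction scaffold Tjp3 (-1.27 and -1.14). The vesicle GTPase Rab25 fell with CD34 (-1.08 ± 0.21) and cingulin (Cgn) with Mts24 (-0.92 ± 0.19). For genotype 1 of 30 fell, the polarity gene Pard6b (-0.62 ± 0.07, limma adjusted p = 0.0477), where 0.382% of all genes tested were called. Cdh1 passed in none of these comparisons (genotype 0.05, CD34 -0.14, Mts24 -0.05).

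Of 26 tested genes of terminal differentiation and the barrier, 2 rose and 8 fell with CD34 (median -0.89), 1 rose and 3 fell with Mts24 (median -0.68), and 0 passed for genotype by limma (4 with an unadjusted p under 0.05). With CD34 38.5% were called, against 26.8% of all genes tested. With Mts24 15.4% were called, fewer than the 26.3% of all genes tested. The medians over all genes tested were -0.03 and 0.02. These values average the genotypes. For the interaction of genotype with fraction 0 of the 26 passed by limma, but 14 had an unadjusted p under 0.05. Among all genes tested 1059 of 10720 did. The median interaction of the list was -0.71, against 0.04 over all genes tested. A negative value is a lower positive minus negative difference in K14Snail than in wild type. The cause was not tested. Keratin 1 (Krt1, -1.85 ± 0.41) and the lipid transporter Abca12 (-1.83 ± 0.31) fell with CD34, and Abca12 (-1.30 ± 0.31), envoplakin (Evpl, -0.87 ± 0.08) and periplakin (Ppl, -0.65 ± 0.11) fell with Mts24. Against this direction the transglutaminase Tgm5 rose with CD34 by 2.77 ± 0.20, and Calml3 rose in both sorts (1.79 and 0.84).

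Of 9 transcription factors of epithelial to mesenchymal transition 3 were tested. Zeb1 and Zeb2, the usual opponents of the Esrp and Grhl genes, did not pass the filter, at 6.72 to 7.74 and 6.13 to 6.60. Besides Snai1, Snai2 was lower in K14Snail by an amount that did not pass (-1.83 ± 0.38, limma adjusted p = 0.107) and rose with Mts24 (2.03 ± 0.53, adjusted p = 0.0415). Tcf4 rose in both sorts, by 0.83 ± 0.10 with CD34 and 1.22 ± 0.10 with Mts24.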

How the data were processed

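RNA of 8 sorted keratinocyte samples was amplified and hybridised to 8 Affymetrix arrays, per the labels' protocols. RMA, named in the submitters' processing notes, is how the authors made the deposited values: a background correction, normalization and probe summary whose result is on a log2 scale; the range of 3.04 to 14.49 fits that scale. Array medians were 7.32 to 7.42. The version of RMA and the genome build are not given in the sources. Of 28874 probe sets 21789 had 1 gene symbol in the platform annotation, 1621 several and 5464 none; the last 2 kinds were left out. By Entrez identifier 21698 matched RefSeq, with 0 symbols changed. For each of 19938 genes the probe set with the highest mean was used, and 10720 genes with at least 2 of 8 arrays at or above 7.70 were tested.

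Differences were fitted with limma 3.58.1 (R 4.3.3) in a model of 4 fractions and genotype (3 residual degrees of freedom, 2.75 prior; 2 residual with the interaction), with Benjamini-Hochberg adjustment over all genes tested at 0.05 (checked on simulated data). No pool block was used, because the pool correlation from duplicateCorrelation was negative (-0.175), which makes errors of genotype differences smaller; it was an alternative. Precision is limited by how few arrays there are, and errors are moderated standard errors. Counts and medians describe gene lists, with no list test. The members and lists were chosen with earlier results of these data known. All 10 members are named; of each list, the 4 largest changes past the threshold in a comparison could be named, together with Snai1, Snai2, Zeb1, Zeb2, Cdh1, Trp63, Cd34 and Plet1; and per tested member the 3 genes of highest r. Krt5 was added as a marker. Alternatives were other normalizations, filters, priors and probe set rules, pool blocks, and leaving out arrays or pools. Protein sequences were not used here.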

Additional observations from a re-analysis of the deposited data

Results flagged for a closer look

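Ehf differed between the sorts: its CD34 difference minus its Mts24 difference was -2.31, by a limma test of the difference itself (adjusted p = 0.00302), with opposite signs in the CD34 and Mts24 pairs of both genotypes. Elf5 also differed between the sorts, by -2.00 (limma adjusted p = 0.0223), with only its Mts24 positive arrays above the filter level. That call was lost with the pool as a fixed block (adjusted p = 0.0651) and in 5 of 8 fits that left out a single array. The sorts used different pools of mice, so sort and pool cannot be told apart in these differences.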

How the results depend on the processing

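The fall of Grhl3, Ovol1, Esrp2, Grhl1 and Ehf with CD34 and the rise of Ehf and Elf5 with Mts24 kept direction and call under every alternative in which the gene was tested; Elf5 was not tested with the filter in 4 of 8 arrays. The number of members called for genotype was 1, 0 without any 1 of the 4 pools, and 0 to 1 without single arrays. For Mts24 it was 7, and 2 to 7 without single arrays. For the difference between the sorts it was 2, 1 with the pool as a fixed block, 1 with the stricter filter, and 1 to 3 without single arrays. With a single array left out, 1 arm of a fraction comparison holds a lone sample that is assumed to vary like the others. For genotype that lone array adds nothing to the estimate, so both arrays of a fraction give the same genotype fit when left out. Signs turned only for members that did not pass, and for the interaction the sign was followed for Ehf alone. Grhl1 turned for genotype (-0.17 to 0.0052 without single arrays, 0.027 without either CD34 pool), as did Grhl3 (-0.14 to 0.029, and 0.071). Ovol2 turned with CD34 (-0.027 with quantile normalization, -0.054 with median centring, -0.25 to 0.27 without single arrays). Without single arrays Grhl2 turned with CD34 (-0.10 to 0.27), and Ovol2 and Grhl1 for the difference between sorts (-0.43 to 0.10, and -0.40 to 0.034). The interaction of Ehf turned as well (-3.16e-05 to 0.096). Over all genes the genotype count of 41 was 220 with the pool as a random block, 30 to 63 with other normalizations, filters, priors or probe set rules, 2 to 23 without single arrays and 0 to 1 without a pool; the random block changed no call of a member. The count for the difference between sorts, 508, was 232 with the pool as a fixed block and 74 to 929 without single arrays; the interaction count of 0 was up to 728. The CD34 count of 2868 was 1332 to 2531 without single arrays, and the Mts24 count of 2816 was 783 to 3198. The causes were not tested. The labels give no replicate numbers; the fixed pool block pairs the positive and negative arrays of a sort and genotype, and with it Ovol1 with Mts24 (adjusted p = 0.0677) and Elf5 for the difference between sorts (adjusted p = 0.0651) lost their calls. No signal over background was available.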

Other observations

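Of 16 other Ets factors tested, 2 rose and 5 fell with CD34 and 0 rose and 3 fell with Mts24, with 0 calls for genotype by limma (4 with an unadjusted p under 0.05). That was 43.75% called with CD34 and 18.75% with Mts24, against 26.8% and 26.3% of all genes tested. Ets1 fell in both sorts (-0.88 ± 0.09 and -0.43 ± 0.09), Ets2 fell with CD34 (-0.50 ± 0.14), and Etv4 (0.51 ± 0.12) and Elk3 (0.45 ± 0.11) rose with CD34. With Mts24, Etv3 fell by 0.56 ± 0.10 and Etv6 by 0.43 ± 0.09. Of 11 other Ovol, Grainyhead-like and splicing factors tested, 1 rose with CD34, the splicing factor Mbnl1 (0.54 ± 0.08), and 2 fell, Rbm47 (-0.55 ± 0.14) and Qk (-0.34 ± 0.09) (by limma 0 passed with Mts24 or for genotype, 3 and 2 with an unadjusted p under 0.05). The 27.3% of them called with CD34 are near the 26.8% of all genes tested.

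Of 12 tested genes whose splicing Esrp proteins are known to set, the actin regulator Enah rose in both sorts (1.20 ± 0.15 with CD34, 0.81 ± 0.15 with Mts24) and Cd44 rose with Mts24 (0.62 ± 0.15), while Arhgef11 fell with CD34 (-0.30 ± 0.08) and Scrib with Mts24 (-0.59 ± 0.09). These are levels of whole genes, and isoforms were not measured here. Of the 12 genes 16.7% were called with CD34 and 25% with Mts24, no more than the 26.8% and 26.3% of all genes tested. Of 15 tested mesenchymal genes 6 rose and 0 fell with CD34, S100a4 (2.90 ± 0.20) and the matrix glycoprotein Tnc (2.62 ± 0.24) most. With Mts24 3 rose, Tgfb2 (2.06 ± 0.19) and Tnc (1.39 ± 0.24) among them, and 2 fell, Vim (-2.18 ± 0.54) and Mmp9 (-1.89 ± 0.49). That was 40% called with CD34 and 33.3% with Mts24, against 26.8% and 26.3% of all genes tested. For genotype 0 of the 15 passed by limma, 5 with an unadjusted p under 0.05. The Vim values above average the genotypes, so its levels on single arrays are given here. For the interaction of genotype with fraction 0 of the 15 genes passed by limma, 4 with an unadjusted p under 0.05. Of all genes tested 0% were called, and 1059 had an unadjusted p under 0.05. With Mts24 Vim went from 12.71 to 9.605 in wild type and from 12.47 to 11.22 in K14Snail. With CD34 it went from 12.40 to 10.38 and from 12.12 to 11.84. Summed myeloid markers were also lowest in the wild type positive fractions (11.65 and 11.71), and their part in the Vim values was not tested.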
